A study of Mus musculus with 4 samples.

Results

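The transcripts described here are those of 44 genes of DNA replication and S phase, chosen by name from the licensing, fork and nucleotide supply machinery, and all 44 were found among the 16673 genes of the deposited table. They were measured by RNA-seq in lineage-negative (Lin–) bone marrow cells, the progenitor-rich fraction that remains once cells with mature blood lineage markers are removed. Every mouse was 2 months old and carried floxed Tet3 alleles. The control group was 2 Tet3F/F mice, with no Cre in their labels, and the cKO group was 2 Tie2+/cre; Tet3F/F mice, in which Cre is driven by Tie2 (Tek), a gene active in endothelial cells and in the precursors of blood cells. Each mouse gave 1 library, and the comparison asks which transcripts differ when Tet3, which encodes an enzyme that oxidises 5-methylcytosine, is targeted.

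In each cell cycle, origins of replication are licensed in G1, when the origin recognition complex, Cdc6 and Cdt1 load a ring of 6 MCM proteins onto DNA. Cyclin E with CDK2, and DBF4 with CDC7, then start S phase, and the ring joins CDC45 and the GINS proteins as the working helicase. Polymerases alpha, delta and epsilon copy the strands, delta and epsilon with the sliding clamp PCNA. Ribonucleotide reductase, thymidylate synthase and thymidine kinase supply deoxynucleotides. E2F transcription factors drive many of these genes at the G1 to S transition, and blood progenitors in the marrow are among the most actively dividing cells of the adult animal.

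The libraries held 28845037 to 46673855 reads in genes. Values are normalized counts, that is, reads scaled to a common depth by the library's size factor. Tet3 itself had 5056 and 6593 in control and 6400 and 5084 in cKO, with overlapping groups (log2 fold change -0.02, SE 0.22). The count is for the gene as a whole and does not resolve the floxed part, so it checks neither genotype nor labels. Directions below are those of the libraries labelled cKO against those labelled control. The progenitor markers Kit (10915 to 14050 normalized counts), Cd34 (8599 to 13170) and Flt3 (4999 to 7456) were present in every library. Xist, the RNA of the inactive X chromosome of females, had 5.54 and 9.57 normalized counts in control and 87442 and 48951 in cKO, so genotype and sex cannot be told apart in any difference given here. None of the 44 genes lies on X or Y in GENCODE M21 (0 of 44). Control replicate 2 stood apart, with correlations over genes of 0.93 to 0.95 with the other libraries against 0.96 to 0.97 among those, and 8.21% of its reads from mitochondrially encoded genes against 0.993% to 1.27% in the others.

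The starts of some of these genes carry the short E2F-type motif, shown first because the rule that chose the genes did not use it. RefSeq promoters (build GRCm38.p6, 250 bases before to 50 after each transcript start) were at hand for 36 of the 44 genes. The motif was searched on both strands as TTTCCCGC, TTTGGCGC, TTTCGCGC or TTTGCCGC, whose matches can overlap one another. It was present in 12 of the 36 (33.3%), against 4.51% of the 11262 genes of the deposited table with a promoter and 2.60% of all 27025. With the 250 bases before the start alone it was present in 8 of the 36 (22.2%), against 3.74% and 2.16%. The matches were in 7 of 10 origin licensing genes and 0 of 4 nucleotide supply genes, and in 1 each of the helicase activation (of 5), polymerase and primase (of 3), clamp and loader (of 5), single-strand binding and joining (of 4) and G1/S control (of 3) genes. CCAAT, the core of the NF-Y site, on either strand was present in 21 of 36 (58.3%), against 42.7% of the table's genes. A match describes letters in a window and is no measure of binding.

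The 6 sequences below are the 200 bases just before the start of 4 licensing genes with E2F-type matches and of Rrm2 and Tk1, the nucleotide supply genes with the smallest p-values, which have none there. Each is written 5′ to 3′ on the gene's strand in GRCm38.p6, with E2F-type matches in capitals.
Mcm6 (chr1:128359706-128359905, minus strand): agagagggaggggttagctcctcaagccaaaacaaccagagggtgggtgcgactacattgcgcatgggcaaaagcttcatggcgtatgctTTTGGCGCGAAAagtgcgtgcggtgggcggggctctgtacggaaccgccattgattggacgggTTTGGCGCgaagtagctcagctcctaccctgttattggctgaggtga
Mcm5 (chr8:75109309-75109508, plus strand): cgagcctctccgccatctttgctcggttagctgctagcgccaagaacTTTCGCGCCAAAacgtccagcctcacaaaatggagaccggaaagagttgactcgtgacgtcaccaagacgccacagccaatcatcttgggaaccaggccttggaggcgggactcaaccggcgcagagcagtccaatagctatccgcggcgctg
Orc1 (chr4:108579254-108579453, plus strand): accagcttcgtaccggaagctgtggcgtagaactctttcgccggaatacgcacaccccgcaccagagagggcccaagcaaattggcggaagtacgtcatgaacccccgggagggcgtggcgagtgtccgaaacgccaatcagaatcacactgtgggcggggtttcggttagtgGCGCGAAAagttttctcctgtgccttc
Cdc6 (chr11:98907951-98908150, plus strand): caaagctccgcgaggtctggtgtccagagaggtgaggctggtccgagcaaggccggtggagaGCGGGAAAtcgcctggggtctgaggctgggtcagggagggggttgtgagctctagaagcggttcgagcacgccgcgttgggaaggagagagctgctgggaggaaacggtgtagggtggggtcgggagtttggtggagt
Rrm2 (chr12:24708054-24708253, plus strand): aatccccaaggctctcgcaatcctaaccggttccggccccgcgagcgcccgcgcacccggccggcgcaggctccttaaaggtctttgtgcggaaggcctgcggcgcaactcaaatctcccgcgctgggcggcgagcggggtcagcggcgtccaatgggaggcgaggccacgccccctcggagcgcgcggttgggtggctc
Tk1 (chr11:117826015-117826214, minus strand): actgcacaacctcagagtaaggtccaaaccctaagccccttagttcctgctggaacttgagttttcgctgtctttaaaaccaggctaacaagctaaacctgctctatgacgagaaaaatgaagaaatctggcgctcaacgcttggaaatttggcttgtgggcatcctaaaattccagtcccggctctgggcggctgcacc
In Mcm6 the match nearest the start began 47 bases before it, and a pair of overlapping matches on opposite strands made up the capital run that began 110 bases before it. Mcm5 had the same kind of overlapping pair, beginning 153 bases before the start.

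**Figure D1:**
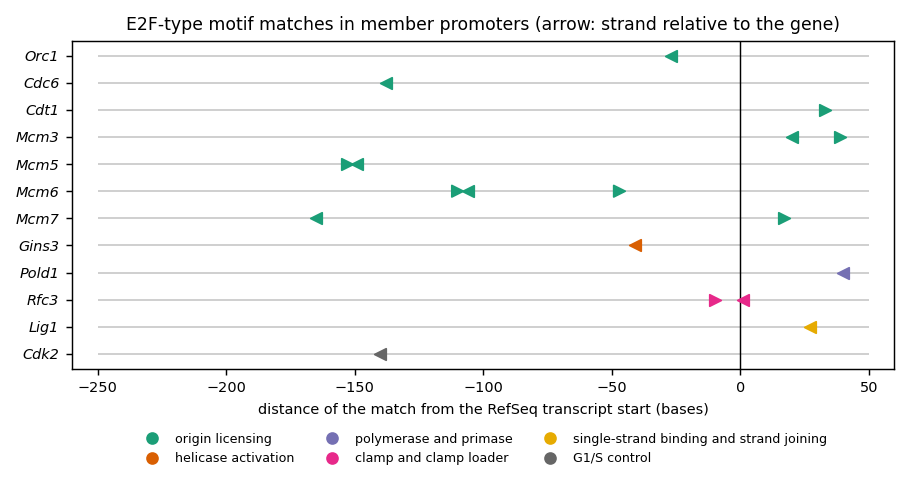
Distance in bases of each E2F-type match from the RefSeq transcript start (x axis, start at 0) for the 12 genes with a match (rows), coloured by role, with arrows for the strand relative to the gene. The 7 origin licensing genes fill the upper rows, and Mcm6 has 3 matches.

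Replication transcripts were present at nearly the same level in both groups, with most of them slightly lower in the libraries labelled cKO. The 44 genes summed to 280370 and 284425 normalized counts in control and 252710 and 258582 in cKO, a difference in means of -9.47%. In this sum each cKO library was lower than each control library, and the same held for the summed normalized counts of all genes. As a share of all reads the difference was smaller, with 0.775% and 0.764% in control against 0.750% and 0.750% in cKO. That total includes mitochondrially encoded genes, which took 8.21% of reads in control replicate 2. As a share of the remaining reads the 44 genes had 0.783% and 0.832% in control against 0.760% and 0.757% in cKO. In bulk RNA, fewer dividing cells and less RNA per cell cannot be told apart. The median log2 fold change (cKO minus control, on log2 of the normalized count + 1) was -0.13 over the 44 genes and 0.01 over all 16598 genes tested, and 37 of the 44 lay below 0 against 49.2% of all genes.

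No single gene of the 44 passed the test. With limma and Benjamini-Hochberg adjustment over all genes tested, 0 of 44 were called, against 0.0723% of all genes (5 higher, 0.0301%, and 7 lower, 0.0422%), and adjusted p ran from 0.76 to 0.99. At an unadjusted p under 0.05, 2 of the 44 were lower and 0 higher, against 2.61% and 3.49% of all genes. edgeR's quasi-likelihood test and DESeq2 on the recovered reads also called 0 of 44, against 0.0723% and 0.645% of all genes. In 23 of 44 genes each cKO library was lower than each control library, against 19.5% of all genes. The opposite held for 2 of 44, Prim2 and Rfc1, against 19.2%. The 44 genes were measured in the same 4 libraries, so this count is not that many separate observations. The 95% intervals, each for 1 gene alone, excluded a 2-fold change in either direction for 42 of the 44 genes, against 8068 of all 16598. The other 2 were Orc6 (-1.01 to 0.15) and Ccne1 (-1.38 to 0.06). The median SE was 0.19 over the 44 genes and 0.29 over all genes.

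**Figure D2:**
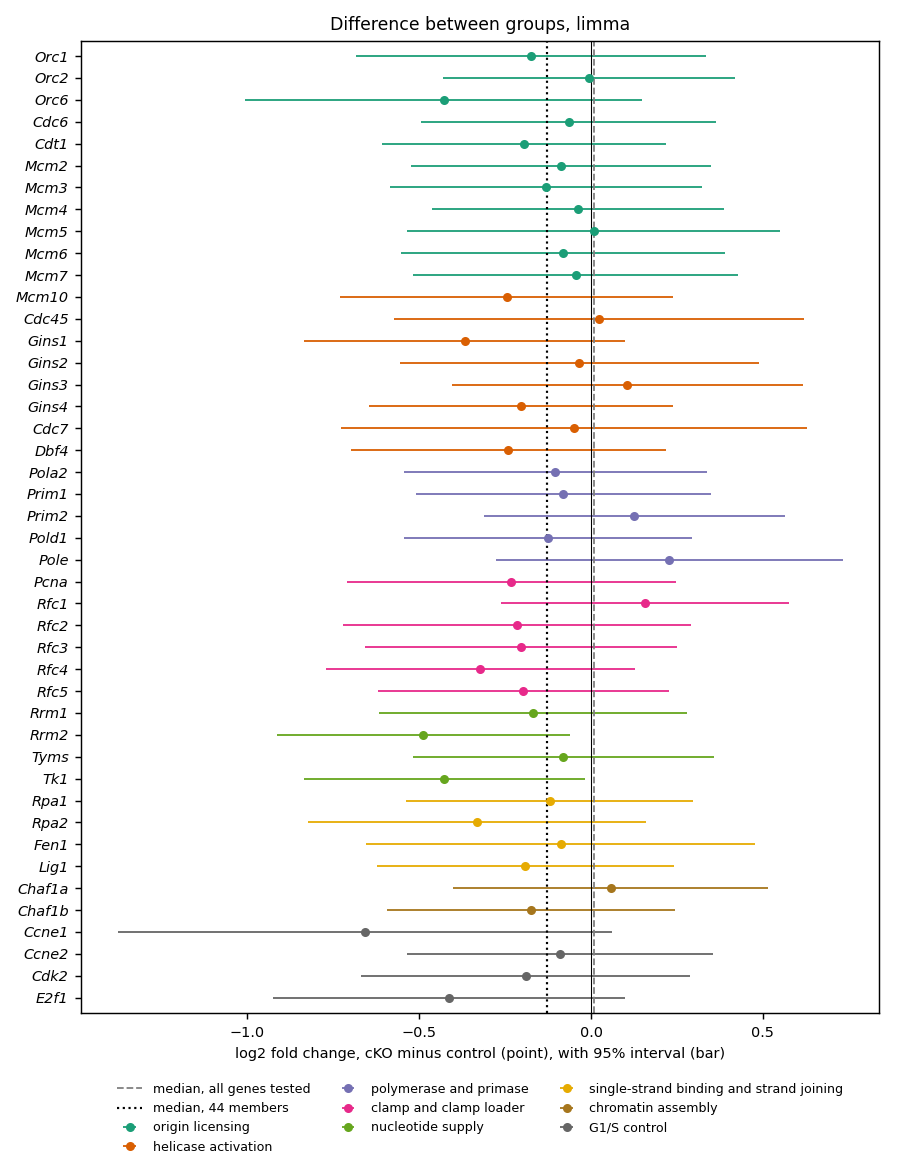
Log2 fold change of each of the 44 genes (points, x axis, cKO minus control) with its 95% limma interval (bars), coloured by role, with lines at the medians of the 44 genes (-0.13) and of all genes tested (0.01). Every interval except those of Rrm2 and Tk1 includes 0.

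Summed cell type markers also differed between the libraries. The 11 markers of T, NK and innate lymphoid cells (10 above 0 in log2 fold change) summed to 7831 to 10625 normalized counts in control and 12661 to 14114 in cKO, and the 7 stromal and bone markers (5 below 0) to 20090 to 21122 and 4813 to 9333. The 12 erythroid markers (11 below 0) ranged from 49411 to 151936 in control and 40869 to 72161 in cKO, and the 7 progenitor markers (5 above 0) from 121648 to 386521 and 293491 to 308955. Most of the progenitor sum was Mpo (82908 to 343617), whereas Kit, Cd34, Flt3 and Ly6a were each higher in both cKO libraries than in both controls (4 of 7 markers, against 19.2% of all genes). Gata2 (log2 fold change -0.26) and Spi1 (-0.14) lay below 0, with overlapping groups. The 9 neutrophil markers (6 below 0) ranged from 103014 to 247953 and 125635 to 202495, the 11 B and plasma cell markers (9 above 0) from 11843 to 20585 and 22704 to 26275, and the 6 endothelial markers (4 above 0) from 5121 to 5317 and 5960 to 7054. Of these markers, only Igll1 in control replicate 2 was at 0. The part of cell makeup in the lower replication transcripts was not tested.

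The nucleotide supply genes lay furthest below control among the fork and licensing roles with all libraries kept, with a median of -0.30. Leaving out control replicate 1 put helicase activation (-0.34) at the same value (-0.34). All 4 nucleotide supply genes lay below 0, and in 3 of 4 each cKO library was lower than each control (19.5% of all genes). Rrm2, the small subunit of ribonucleotide reductase, which makes deoxynucleotides in S phase, had 10312 and 11103 normalized counts in control and 7838 and 7422 in cKO. Each cKO library was lower than each control library, and the means differed by -28.7%. Its log2 fold change was -0.49 (SE 0.18, unadjusted p = 0.030, limma with Benjamini-Hochberg adjusted p = 0.76). Tk1, the thymidine kinase that salvages thymidine, had 5609 and 5834 normalized counts in control and 4240 and 4270 in cKO, where the replicates of each group were close together. Its log2 fold change was -0.43 (SE 0.18, unadjusted p = 0.043, limma with Benjamini-Hochberg adjusted p = 0.76). Neither difference passed, and neither rested on a single library, since with each left out Rrm2 ran from -0.54 to -0.44 and Tk1 from -0.46 to -0.40.

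Rrm1, the large subunit of ribonucleotide reductase, had 16578 and 17897 normalized counts in control and 15195 and 15461 in cKO (log2 fold change -0.17, SE 0.19). Its groups did not overlap, but the difference was smaller than that of Rrm2. The Rrm2 to Rrm1 ratio of normalized counts, which depends on transcript lengths and is comparable only between libraries, was 0.622 and 0.620 in control and 0.516 and 0.480 in cKO. Tyms, thymidylate synthase, which makes thymidylate from deoxyuridylate, had 3165 and 2707 in control and 2718 and 2819 in cKO (log2 fold change -0.08, SE 0.19), with overlapping groups.

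**Figure D3:**
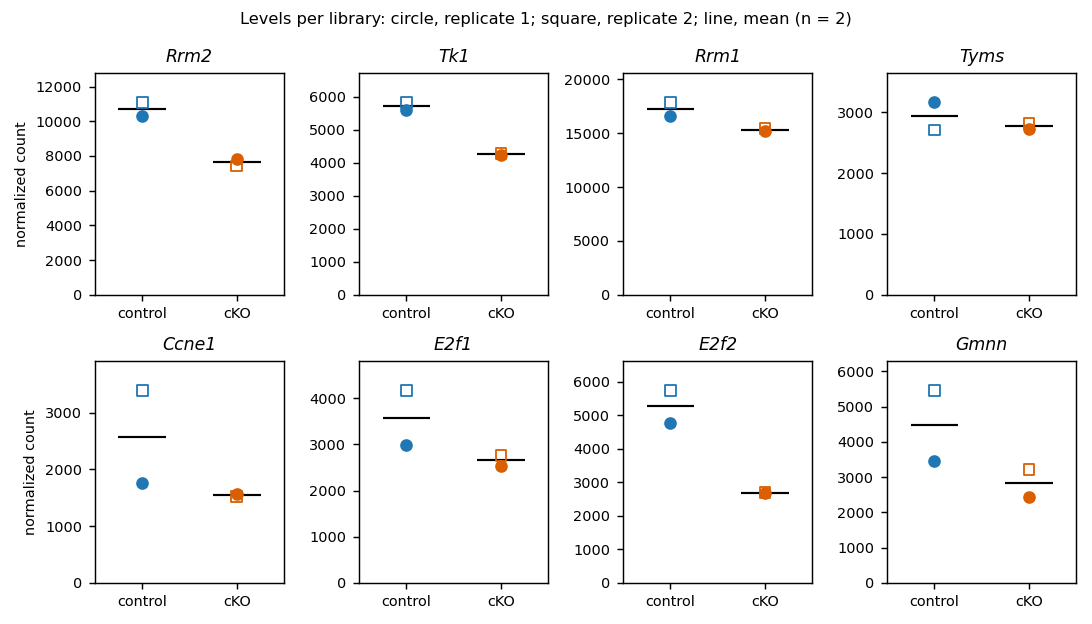
Normalized counts per library (y axis, from 0) of the nucleotide supply genes Rrm2, Tk1, Rrm1 and Tyms, the G1/S genes Ccne1, E2f1 and E2f2, and the licensing inhibitor Gmnn, with circles for replicate 1, squares for replicate 2 and lines for the mean of 2 mice. Rrm2 and Tk1 show close replicates and separate groups, E2f2 shows separate groups with close cKO replicates, and Ccne1 is high in control replicate 2 alone.

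Origin licensing genes were close to control. Of 11 genes 10 lay below 0, with a median of -0.08 and a lowest value of -0.43. In 5 of 11 each cKO library was lower than each control (45.5%, against 19.5% of all genes). The opposite held for 0 of 11, against 19.2%. Orc6, the smallest origin recognition subunit, had 2225 and 3407 normalized counts in control and 1886 and 2215 in cKO (log2 fold change -0.43, SE 0.25). The upper value is that of control replicate 2, and without that library the log2 fold change was -0.12. Cdt1, which loads the MCM ring, had 6412 and 6003 in control and 5432 and 5400 in cKO (-0.20, SE 0.18), and Orc1, the large ATP-binding subunit of the complex, had 990 and 1153 against 1017 and 881 (-0.17, SE 0.22), with overlapping groups. Cdc6 (-0.06, SE 0.18) and Orc2 (-0.01, SE 0.18) were nearer to 0, and Orc2 changed sign when rescaled by TMM or quantile normalization (0.01 and 0.02).

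The MCM2 to MCM7 genes, which form the helicase ring, had log2 fold changes from -0.13 to 0.01, below 0 in all but Mcm5, although under quantile normalization Mcm6 (0.03) and Mcm7 (0.06) also lay above 0. Mcm3 had 19026 and 17489 normalized counts in control and 16431 and 16869 in cKO (-0.13, SE 0.19). Both its cKO libraries were below both controls, as they were for Mcm2 and, narrowly, Mcm4. Mcm2 (-0.09, SE 0.19), Mcm6 (-0.08, SE 0.20), Mcm7 (-0.04, SE 0.20) and Mcm4 (-0.04, SE 0.18) were nearer to 0. Mcm5 had 18772 and 13122 in control and 15357 and 16209 in cKO (0.01, SE 0.23), so its control replicates enclosed both cKO libraries. Leaving out control replicate 1 gave 0.27, and leaving out control replicate 2 gave -0.25.

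Levels of the ring genes were compared per kilobase of the principal GENCODE M21 transcript, the longest where several ranked equally. Mcm6 was the highest, with 7515 to 8445 normalized counts per kilobase over the 4 libraries, above every library of the others. Mcm7 (5444 to 6469) and Mcm3 (5421 to 6277) did not differ beyond their spread, and Mcm5 (3881 to 5552) overlapped both and also Mcm2 (3930 to 4308). Mcm4 was the lowest at 2891 to 3042. The ring subunits, which assemble in equal numbers, thus had transcript levels that spanned 2975 to 7891 normalized counts per kilobase on average. The loading factors Cdt1 (2655 on average) and Cdc6 (1516) were below each of the 6.

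Helicase activation genes differed between the control libraries by more than most other roles, with a median absolute log2 difference of 0.30 against 0.15 over all 44 genes. Of 8 genes 6 lay below 0 (median -0.13). In 3 of the 8 each cKO library was lower than each control (37.5%, against 19.5% of all genes). The opposite held for 0 of the 8, against 19.2%. Gins1, a subunit of the GINS complex, had 1850 and 1933 normalized counts in control and 1337 and 1606 in cKO (log2 fold change -0.37, SE 0.20). Gins4 had 1923 and 2161 against 1735 and 1805 (-0.20, SE 0.19), and both genes had every cKO library below every control. Gins2 (-0.03, SE 0.22) and Gins3 (0.11, SE 0.22) had overlapping groups, so the 4 subunits of 1 complex went from -0.37 to 0.11. Per kilobase, Gins1 (1547 on average) and Gins4 (1413) exceeded Gins3 (349) and Gins2 (336). This order depends on the transcript lengths taken, such as 1087 bases for Gins1 and 3900 for Gins2. Before division by length, the control means of these genes were 1891 and 1325. The Gins2 count is uncertain, since 67.3% of its exon bases are shared with Gse1 on the opposite strand.

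Mcm10, which helps to activate the helicase, had 3470 and 4651 normalized counts in control and 3474 and 3304 in cKO (log2 fold change -0.25, SE 0.21), with control replicate 1 between the cKO libraries, and its value was -0.034 with control replicate 2 left out. Dbf4, the activating subunit of the CDC7 kinase, had 2776 and 3442 in control and 2715 and 2522 in cKO (-0.24, SE 0.20), which became -0.085 with the same library left out. Its partner Cdc7 had 1817 and 3341 in control and 2311 and 2455 in cKO, so that the control replicates lay on either side of cKO (-0.05, SE 0.29). Cdc45, which completes the helicase, had 3958 and 2413 in control and 3144 and 3136 in cKO, again enclosed by the controls but in the opposite order (0.02, SE 0.26, and below 0 with edgeR and DESeq2). In both, the spread within control exceeded the difference between the groups.

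Polymerase and primase genes showed no common direction, with 3 of 5 below 0 and a median of -0.08, which was 0.024 without control replicate 2. Pole, the catalytic subunit of the leading strand polymerase, had 3986 and 3627 normalized counts in control and 5245 and 3781 in cKO (log2 fold change 0.23, SE 0.22), the highest value of all 44 genes. Its high value was that of cKO replicate 1 alone, and without it the log2 fold change was -0.01. Pold1, the catalytic subunit of polymerase delta, had 8318 and 7719 in control and 7435 and 7257 in cKO (-0.13, SE 0.18), with groups that did not overlap.

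Among the genes of the primase complex, Prim2, the large primase subunit, had 1979 and 1837 normalized counts in control and 2163 and 2001 in cKO (log2 fold change 0.13, SE 0.19), both above control. Prim1, the catalytic primase subunit, had 3074 and 3544 against 3096 and 3148 (-0.08, SE 0.18), and Pola2, the second subunit of polymerase alpha, 4198 and 5008 against 4449 and 4093 (-0.10, SE 0.19). In both, control replicate 2 was the highest library and the groups overlapped.

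Clamp and clamp loader genes had a median of -0.21 (-0.31 to -0.12 with each library left out), with 5 of 6 below 0. Pcna, the sliding clamp, had 18176 and 19969 normalized counts in control and 14911 and 17658 in cKO (log2 fold change -0.23, SE 0.20). Both its cKO values were below both controls, and per kilobase it was the highest of the 44 genes (11646 on average). Reads of Pcna can be shared with processed copies, of which Pcna-ps2 was in the table at 0.00895 to 0.0169 of the Pcna value. Rfc4 had 2089 and 2147 in control and 1574 and 1824 in cKO (-0.32, SE 0.19), Rfc5 4532 and 4744 against 3806 and 4297 (-0.20, SE 0.18) and Rfc3 1931 and 2257 against 1746 and 1880 (-0.20, SE 0.19). In each of these small loader subunits both cKO libraries were below both controls. With Pcna they made 4 of the 6 genes of this role, against 19.5% of all genes. The opposite held for 1 of 6, against 19.2%. Rfc1, the large subunit of the same loader, went the other way, with 5354 and 4872 in control and 5863 and 5533 in cKO (0.16, SE 0.18). Per kilobase the 5 loader subunits averaged between 1138 (Rfc1) and 1728 (Rfc2), a narrower span than the MCM ring. That span depends on the transcript lengths taken, 4995 bases for Rfc2 and 1228 for Rfc4. Before division by length, the control means were 9322 for Rfc2 and 2118 for Rfc4. Rfc2, another small subunit, had a log2 fold change of -0.22 (SE 0.22), with overlapping groups. Of their exon bases, Rfc4 shares 12.7% with Eif4a2, Rfc2 15.1% with Lat2 and Rfc5 10.7% with Wsb2, on the opposite strand. Eif4a2 had 13451 to 18687 normalized counts, well above Rfc4. The log2 fold changes of these partners were -0.15, -0.30 and -0.39, and their part in the loader counts was not tested.

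All 4 genes that coat single-stranded DNA or join strands lay below 0 (median -0.16). Rpa2, a subunit of the single-strand binding protein RPA, had 4690 and 6248 normalized counts in control and 4032 and 4585 in cKO (log2 fold change -0.33, SE 0.21). It was -0.13 without control replicate 2. Rpa1, the large RPA subunit, had 8724 and 8565 in control and 7796 and 8112 in cKO (-0.12, SE 0.18), and Lig1, the ligase that joins Okazaki fragments, 9598 and 10721 against 8798 and 8977 (-0.19, SE 0.18). In neither did the groups overlap. Of the 4 genes, 3 had each cKO library below each control, against 19.5% of all genes. The opposite held for 0 of 4, against 19.2%. Fen1, the flap nuclease, had 709 and 610 against 567 and 674 (-0.09, SE 0.24). Its count is uncertain because 78.8% of its exon bases in GENCODE M21 also belong to Gm10143 on the opposite strand, and no source used here says whether reads were counted by strand.

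Chaf1b, a subunit of the CAF-1 chaperone that places histones on new DNA, had 2819 and 2977 normalized counts in control and 2572 and 2561 in cKO (log2 fold change -0.17, SE 0.18), with groups apart. Chaf1a, the large CAF-1 subunit, had 4236 and 3422 against 4176 and 3759 (0.06, SE 0.20), with groups that overlapped. It shares 52.5% of its exon bases with Ubxn6 on the opposite strand. Exon overlap of 10% or more with another gene of the table was found for 9 of the 44 genes (Orc1, Orc2, Gins2, Rfc2, Rfc4, Rfc5, Fen1, Chaf1a and Ccne2). Without those 9 and Pcna, 28 of 34 genes lay below 0 and the median was -0.13.

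The G1/S control genes had a median of -0.30, all 4 below 0, and depended on control replicate 2. Ccne1, cyclin E1, had 1751 and 3396 normalized counts in control and 1567 and 1522 in cKO, so that control replicate 2 was far above the other 3 libraries. Its log2 fold change of -0.66 (SE 0.31, limma with Benjamini-Hochberg adjusted p = 0.76) was -0.18 when control replicate 2 was left out. With control replicate 1 left out it was -1.14 and the only call among the 44 genes (limma with Benjamini-Hochberg adjusted p = 0.032, against 0.62 to 0.9998 in its other alternatives), in a fit that called 2.38% of all genes. E2f1, an activating E2F, had 2983 and 4180 in control and 2544 and 2763 in cKO (-0.41, SE 0.22), and was -0.17 without control replicate 2. Cdk2, the kinase partner of cyclin E, had 5433 and 7227 against 5573 and 5413 (-0.19, SE 0.21), and Ccne2, cyclin E2, 1553 and 1662 against 1483 and 1537 (-0.09, SE 0.19).

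**Figure D4:**
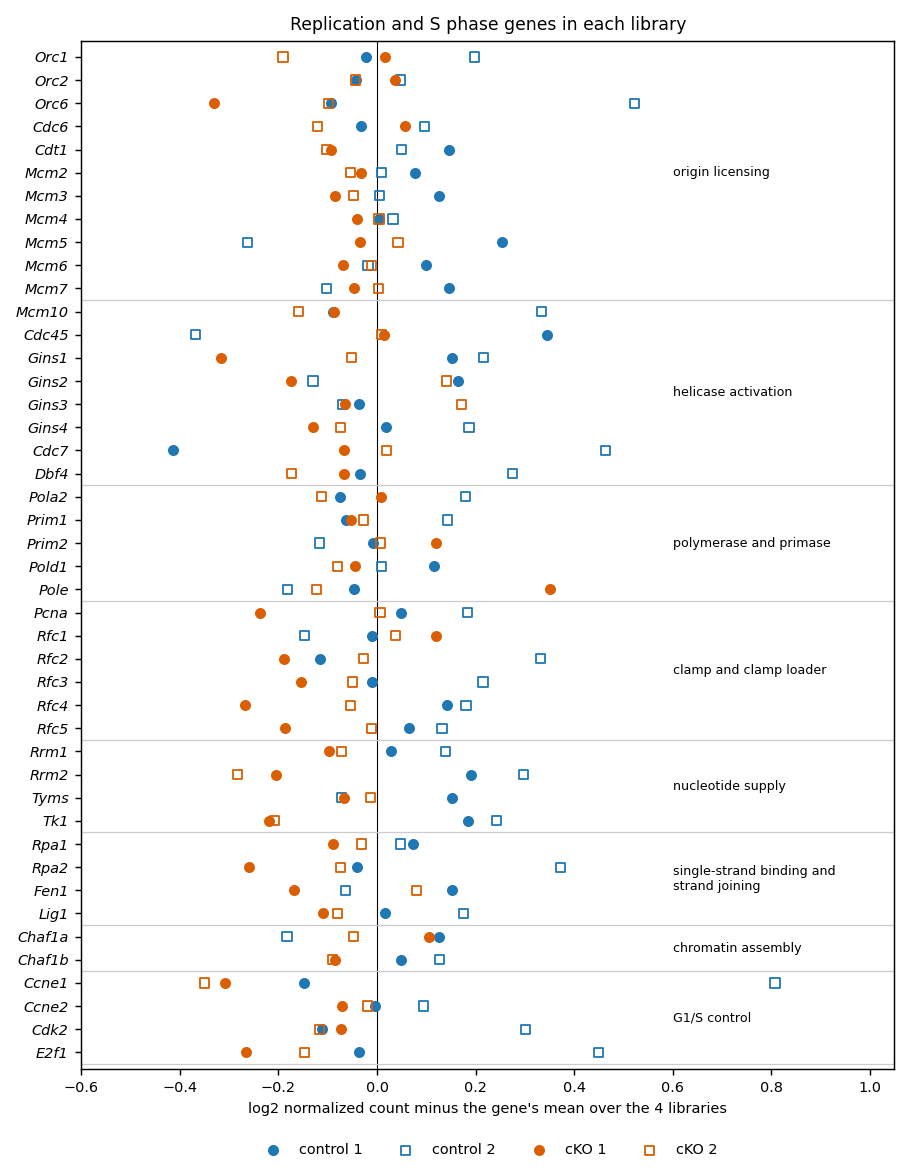
Each gene's log2 normalized count in the 4 libraries minus its mean over them (x axis), by role, with control in blue, cKO in orange, circles for replicate 1 and squares for replicate 2. Control replicate 2 is the highest library in 27 of 44 genes and lies far to the right for Ccne1, Orc6, Cdc7 and E2f1.

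The spread between the control mice was of the same order as the group difference. Over the 44 genes the median absolute log2 difference was 0.15 between the controls, 0.08 between the cKO libraries and 0.16 between the group means, and the group difference exceeded both within-group differences in 16 of 44 (36.4%, against 24.1% of all genes). Control replicate 2 was the highest library in 27 genes and control replicate 1 in 13, against 34.0% and 23.1% of all genes tested. cKO replicates 1 and 2 were the highest in 3 and 1, against 27.6% and 15.3%. The 5 genes that differed by more than 0.5 between the controls were Ccne1, Cdc7 and Orc6, higher in replicate 2, and Cdc45 and Mcm5, lower in it. With some library left out, the log2 fold change moved by over 1.5 times or changed sign in 37 of 44 genes, the others being Cdt1, Rfc4, Rrm1, Rrm2, Tk1, Rpa1 and Chaf1b. Without control replicate 2, 34 of 44 genes lay below 0 and the median was -0.12. Without control replicate 1 they were 33 of 44 and -0.20.

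Genes of the same pathway outside the 44 were described from 5 lists with the same test. Of 30 other fork and licensing genes, 22 lay below 0 with a median of -0.13, and 0 passed limma with Benjamini-Hochberg adjustment (2 lower at an unadjusted p under 0.05, against 2.61% of all genes). Gmnn, geminin, which blocks CDT1, had 3459 and 5468 normalized counts in control and 2422 and 3218 in cKO (log2 fold change -0.64, SE 0.27). Tipin, of the fork protection complex, had 4621 and 6645 against 3341 and 3836 (-0.63, SE 0.23), and Chtf18, of an alternative clamp loader, 1912 and 2267 against 1631 and 1492 (-0.42, SE 0.20). Over the list, each cKO library was lower than each control in 15 of 30 genes, against 19.5% of all genes. The opposite held for 1 of 30, against 19.2%. The 3 named genes had the smallest p-values of the list. In all 3 the groups did not overlap, and control replicate 2 was the highest library. Leaving it out gave -0.31 for Gmnn, -0.37 for Tipin and -0.29 for Chtf18.

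Of 18 other nucleotide supply genes, 10 lay below 0 with a median of -0.05, and 0 passed (1 lower at an unadjusted p under 0.05, against the same 2.61%). With control replicate 1 left out that median was 0.087, above 0. Nme1, a nucleoside diphosphate kinase, had 3490 and 7434 normalized counts in control and 2447 and 3359 in cKO (log2 fold change -0.83, SE 0.35). Leaving out control replicate 2 gave -0.28, and leaving out control replicate 1 gave -1.37 and a call (limma with Benjamini-Hochberg adjusted p = 0.033, against 0.49 to 0.9998 in its other alternatives). Dtymk, thymidylate kinase, had 5971 and 8537 against 5195 and 5271 (-0.45, SE 0.22), and Dut, which removes dUTP, 7157 and 9564 against 5480 and 6907 (-0.43, SE 0.22). Leaving out control replicate 2 gave -0.19 for Dtymk and -0.22 for Dut.

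Of 28 other G1/S regulators, 18 lay below 0 with a median of -0.09, and 0 passed limma (4 lower and 1 higher at an unadjusted p under 0.05, against 2.61% and 3.49% of all genes). E2f2, an activating E2F, had 4768 and 5745 normalized counts in control and 2671 and 2685 in cKO, a difference in means of -49.1%, with cKO replicates close together and far below both controls. Its log2 fold change was -0.97 (SE 0.19, limma with Benjamini-Hochberg adjusted p = 0.43). DESeq2 on the recovered reads called it (Benjamini-Hochberg adjusted p = 0.0039), as did limma without control replicate 1 (adjusted p = 0.0307). Over its 14 alternatives the adjusted p ran from 0.0039 to 0.9998 and the log2 fold change from -1.10 to -0.83. Cdkn2d, a CDK4/6 inhibitor, had 2152 and 2279 against 1226 and 1368 (-0.77, SE 0.19), and Ccnd3, cyclin D3, 10825 and 13233 against 7817 and 7871 (-0.61, SE 0.20), with groups apart in both. These 3 differences were larger than those of Rrm2 and Tk1. Over the list, each cKO library was lower than each control in 9 of 28 genes, against 19.5% of all genes. The opposite held for 4 of 28, against 19.2%.

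Of 28 G2 and mitosis genes, 21 lay below 0 with a median of -0.10, and 0 passed limma (0 at an unadjusted p under 0.05). Ube2c, which marks mitotic cyclins for destruction, had 4253 and 6511 normalized counts in control and 3769 and 3637 in cKO (log2 fold change -0.51, SE 0.24), and its value was -0.20 with control replicate 2 left out. Cdca8, of the chromosomal passenger complex, had 5042 and 4869 against 3734 and 4016 (-0.36, SE 0.18), and Plk1, a mitotic kinase, 3903 and 3661 against 3077 and 2882 (-0.34, SE 0.18). Of 17 replication stress and checkpoint genes, 12 lay above 0 with a median of 0.15, and 0 passed limma (0 at an unadjusted p under 0.05). The checkpoint kinase Atr had 2357 and 1948 against 3123 and 2217 (0.30, SE 0.23), and the ligase Rad18 1975 and 1518 against 2083 and 1966 (0.22, SE 0.21), where the groups overlapped. Leaving out cKO replicate 1 gave 0.049 for Atr, and leaving out control replicate 2 gave 0.035 for Rad18. edgeR called 0 genes of these 5 lists, and DESeq2 called E2f2 alone.

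**Figure D5:**
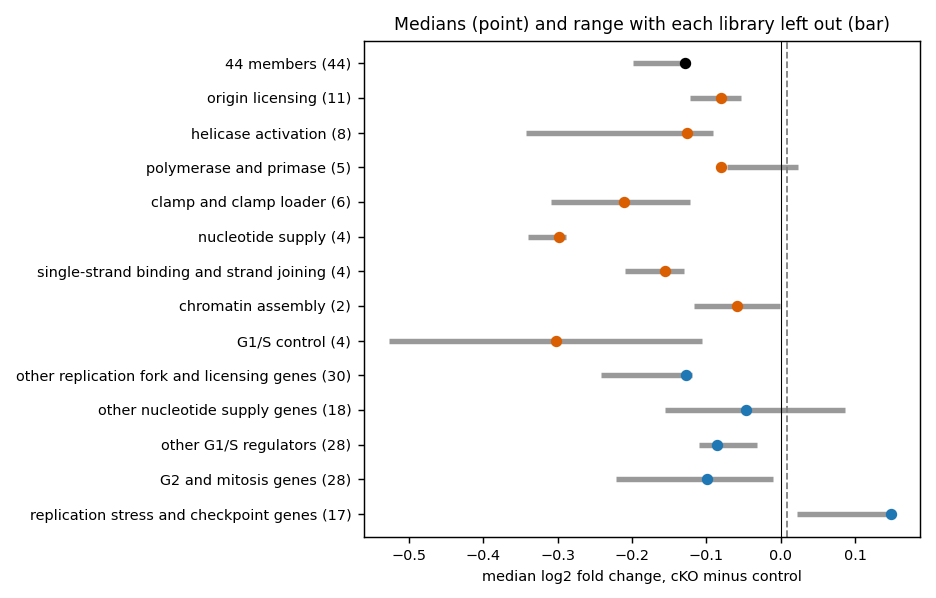
Median log2 fold change (points, x axis, cKO minus control) of the 44 genes, of each role (orange) and of 5 other pathway lists (blue), with the number of genes in brackets, bars for the range with each library left out and a dashed line for the median of all genes tested (0.01). The bar of the nucleotide supply genes runs from -0.34 to -0.29 and that of the G1/S control genes from -0.53 to -0.11.

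The 12 genes with an E2F-type promoter match and the 24 with a promoter but no match did not stand apart in the group difference. Their median log2 fold changes were -0.13 and -0.17, with 10 of 12 and 21 of 24 below 0. Over the other 495 tested genes with a match the median was -0.02, and over 10705 without one 0.00. The 12 with a match ran from -0.20 to 0.11 and the 24 without one from -0.66 to 0.16. Among the promoters printed above, Mcm6, Mcm5, Orc1 and Cdc6 with matches had -0.08, 0.01, -0.17 and -0.06. Rrm2 and Tk1 with none had -0.49 and -0.43, but they were printed for their small p-values. Their contrast with the other printed genes was set by that choice and says nothing about the motif.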

How the data were processed

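RNA was sequenced from Lin– cells of 4 mice, 1 library each. The submitters' processing notes list build mm39 and the tools STAR 2.7.9a, Trim Galore 0.6.7, DESeq2, featureCounts and SAMtools. No source used here gives the annotation, the strand setting or the filters. The authors deposited a signal for each gene, a count of reads scaled by the library's size factor. Columns headed WT were taken as the control samples of the same number. Whole reads were recovered (100% of values within 0.1 read), 28845037 to 46673855 per library, with size factors of 0.857 to 1.25. The least covered member had 486 reads in a library. Replicates differed by more than counting error, with a chi-square per degree of freedom of 293 in control and 37.7 in cKO.

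Values were tested as log2(normalized count + 1) with limma 3.58.1 in R 4.3.3 (moderated with a mean-variance trend, two-sided). p-values were Benjamini-Hochberg adjusted over the 16598 genes whose mean reached 10, at a threshold of 0.05. All 44 members passed that filter. With n = 2 mice per group, the smallest p of an exact permutation test is 0.33. The alternatives were other pseudocounts, filters and scalings, no variance trend, a replicate block, edgeR 4.0.16 (12 genes called) and DESeq2 1.42.0 on the recovered reads, and omission of each library in turn. The scripts were tested on simulated data. Lists were described by counts and medians. Values in every library are given for the 4 members of each role with the smallest p-value (all in roles of 5 or fewer), and for the 3 such genes of each other pathway list, of which 1 is not reported here. Mcm5, Cdc7, Cdc45 and Rfc1 were singled out after their values were seen. Members and lists were chosen with earlier results of these data known. Promoters came from RefSeq (GRCm38.p6) and transcript lengths and overlaps from GENCODE M21, matched by symbol.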

Additional observations from a re-analysis of the deposited data

How the results depend on the processing

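The direction of 27 of the 44 genes was the same in all 14 alternatives, and that of 39 in the 10 alternatives that keep all libraries. The exceptions among the latter were Orc2 (0.0095 rescaled by TMM, 0.016 with quantile normalization and 0.0080 with edgeR), Mcm5 and Cdc45 (-0.0017 and -0.0079 with edgeR, -0.016 and -0.021 with DESeq2), and Mcm6 and Mcm7 (0.030 and 0.056 with quantile normalization). Tet3 was 0.020 with quantile normalization. Members called lower were 0 in those 10 alternatives and 0 to 1 with each library left out.

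Over all genes the number called higher was 2 with a mean of at least 50, with quantile normalization and with no variance trend, 3 with the replicate block, and 71 with DESeq2 (36 lower), and with each library left out it ran from 4 to 231 (8 to 161 lower). The replicate block called 0 of the 44 genes and changed no call of a named gene. The numbers are not stated to pair mice, and the deviations of same-numbered libraries correlated at -0.07 over genes. Members lower at an unadjusted p under 0.05 were 1 with the block, TMM or quantile normalization, 0 with no variance trend, 3 with DESeq2 and 0 to 8 with a library left out.

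With each library left out the median of the 44 genes ran from -0.20 to -0.12, of origin licensing from -0.12 to -0.054 (-0.024 with quantile normalization), of helicase activation from -0.34 to -0.090, of polymerase and primase from -0.072 to 0.024 and of nucleotide supply from -0.34 to -0.29 (-0.28 with TMM, -0.24 with quantile normalization, -0.28 with edgeR). The medians of other fork and licensing genes ran from -0.24 to -0.12, other nucleotide supply genes from -0.15 to 0.087 (0 to 1 called lower), other G1/S regulators from -0.11 to -0.032 (-0.063 with edgeR, 0 to 1 called lower, 1 with DESeq2), G2 and mitosis genes from -0.22 to -0.010, and replication stress and checkpoint genes from 0.022 to 0.15.

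Single genes that changed sign with a library left out ran from -0.051 to 0.040 (Orc2), -0.15 to 0.024 (Cdc6), -0.25 to 0.27 (Mcm5), -0.17 to 0.080 (Mcm7), -0.33 to 0.38 (Cdc45), -0.19 to 0.12 (Gins2), -0.013 to 0.22 (Gins3), -0.49 to 0.39 (Cdc7), -0.23 to 0.024 (Pola2), -0.18 to 0.022 (Prim1), -0.0080 to 0.46 (Pole), -0.44 to 0.0087 (Rfc2), -0.19 to 0.032 (Tyms), -0.21 to 0.036 (Fen1), -0.096 to 0.21 (Chaf1a), -0.40 to 0.016 (Cdk2) and -0.21 to 0.17 (Tet3). The lone library of a group was assumed to vary like the other group. The cause of these changes was not tested. Sex and genotype cannot be told apart.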
